A study of Drosophila melanogaster with 2 samples.

Results

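Chromatin immunoprecipitation followed by sequencing (ChIP-seq) of GFP-tagged Repo gave 991 peaks at promoters whose genes all run in one direction, out of the 2697 peaks that the authors kept as their optimal list (36.7%, Wilson 95% interval 34.9 to 38.6%). A peak was taken as a member when its summit lay within 500 bp of transcription start sites (TSSs) of protein-coding genes and all of those TSSs were on 1 strand. Another 496 optimal peaks (18.4%) had TSSs on both strands within 500 bp and are called divergent promoter peaks, and 1210 lay over 500 bp from any coding TSS. The single group consisted of whole *Drosophila melanogaster* embryos of mixed sex, aged 0 to 24 h, from a transgenic line in which GFP is joined to the C-terminus of Repo. All samples were precipitated with anti-GFP after sonication to 200 to 800 bp, and the 2 biological replicates are numbered 1 and 3. Glia are among many cell types in such embryos, so the cell type in which a promoter was bound cannot be read from these lists, and no cells were sorted that markers could check. No other genotype, stage or treatment was analysed here. Without read counts in the lists, the depth of each library is unknown, and intervals below cover the counting of peaks or genes only.

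Repo is a homeodomain transcription factor made by nearly all glia other than those of the midline, and glia need it for their late differentiation. Fly promoters fall into broad kinds by their core sequences. Housekeeping promoters often carry the sites of the zinc finger proteins Dref and M1BP, whereas promoters with paused RNA polymerase often carry GAGA repeats, which are bound by the GAGA factor, or an initiator. When neighbouring genes point away from each other, 1 stretch of DNA serves as promoter to both. A peak there cannot be given to 1 gene. At one-direction promoters the coding TSSs within 500 bp run the same way, so upstream and downstream can be stated for the nearest TSS. A summit upstream of 1 TSS can still lie downstream of another TSS of the same gene.

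The sequences just upstream of the strongest members are shown because the results turn on where summits lie relative to the TSS and on which core motifs are near. Among the 20 members of highest signal, these are the first 8 in which the 60 bases before the TSS overlap no annotated exon and whose sequence could be shown, read on the strand of the gene from the RefSeq dm6 genome. Capitals mark matches to any of the 12 motifs searched. They lie at chrX:2703853-2703912 (Ugalt, minus strand), chr3L:19590525-19590584 (CG14100, minus), chr3R:31404741-31404800 (PNPase, minus), chrX:2136856-2136915 (ph-p, minus), chr3L:1746847-1746906 (CG13921, plus), chr3R:28326265-28326324 (larp, minus), chr3R:23669660-23669719 (CG31145, minus) and chr2L:4997382-4997441 (Rtnl1, minus).
Ugalt: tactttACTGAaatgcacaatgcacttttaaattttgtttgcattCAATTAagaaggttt
CG14100: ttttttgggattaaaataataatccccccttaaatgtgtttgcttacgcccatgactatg
PNPase: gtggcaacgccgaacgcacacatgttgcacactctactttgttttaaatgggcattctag
ph-p: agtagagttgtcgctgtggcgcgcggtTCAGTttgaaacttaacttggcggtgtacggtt
CG13921: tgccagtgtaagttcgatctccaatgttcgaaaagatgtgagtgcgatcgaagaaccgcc
larp: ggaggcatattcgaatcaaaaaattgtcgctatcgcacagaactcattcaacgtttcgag
CG31145: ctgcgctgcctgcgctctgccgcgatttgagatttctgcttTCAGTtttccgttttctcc
Rtnl1: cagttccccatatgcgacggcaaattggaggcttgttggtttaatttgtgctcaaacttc
The initiator core TCAGT, or its reverse complement, was in the stretches of Ugalt, ph-p and CG31145. Ugalt also had CAATTA, the reported Repo site. The other 5 held no match to the 12 motifs, which says only that those letters are not in these 60 bases.

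Summits at one-direction promoters lay mostly upstream of the nearest TSS, which can be internal to its gene. Of the 991 summits, 733 (74.0%, 71.1 to 76.6%) were upstream of the nearest TSS, 2 were at it and 256 were downstream. The median position was -83 bp, where negative values are upstream, and the middle 50% of the summits ran from -211 to 2.5 bp. The 100 bp just before the TSS held 281 summits (28.4%), the next 100 bp upstream held 183 (18.5%), and 269 (27.1%) were more than 200 bp upstream. The share was 72.5% at genes on the plus strand and 75.1% at genes on the minus strand. Each replicate's own list put nearly the same share upstream, 72.6% of 988 matched summits in replicate 1 and 74.0% of 986 in replicate 3, with medians of -83.5 and -82 bp. In these matches 12 members in replicate 1 and 25 in replicate 3 shared their replicate peak with another peak of the optimal list. The summits of the replicates lay a median of 25 bp apart, and 909 of the 983 members found in both lists (92.5%) were on the same side of the TSS in both.

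The position differed from that of weak signal at the same kind of promoter. Weak peaks are the 27302 peaks of the pooled list whose summit lay in no optimal peak, and 6001 of them met the one-direction rule. At the members 74.0% of summits were upstream, against 40.5% (39.3 to 41.7%) at the weak peaks, and the median was -83 bp at the members against 49 bp at the weak peaks. Mean GC content of the 201 bp around the summit was 41% at the members and 47.5% at the weak peaks; its part in the difference was not tested. Members had a wider upstream tail than divergent promoter peaks, whose median was -52 bp with 79.6% upstream. Between a pair of divergent TSSs the upstream side is bounded by the other gene, so this last contrast follows in part from the rule and was not tested. When only the outermost 5' end of each gene counted as a TSS, 766 peaks were members and 68.1% of their summits were upstream.

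**Figure D1:**
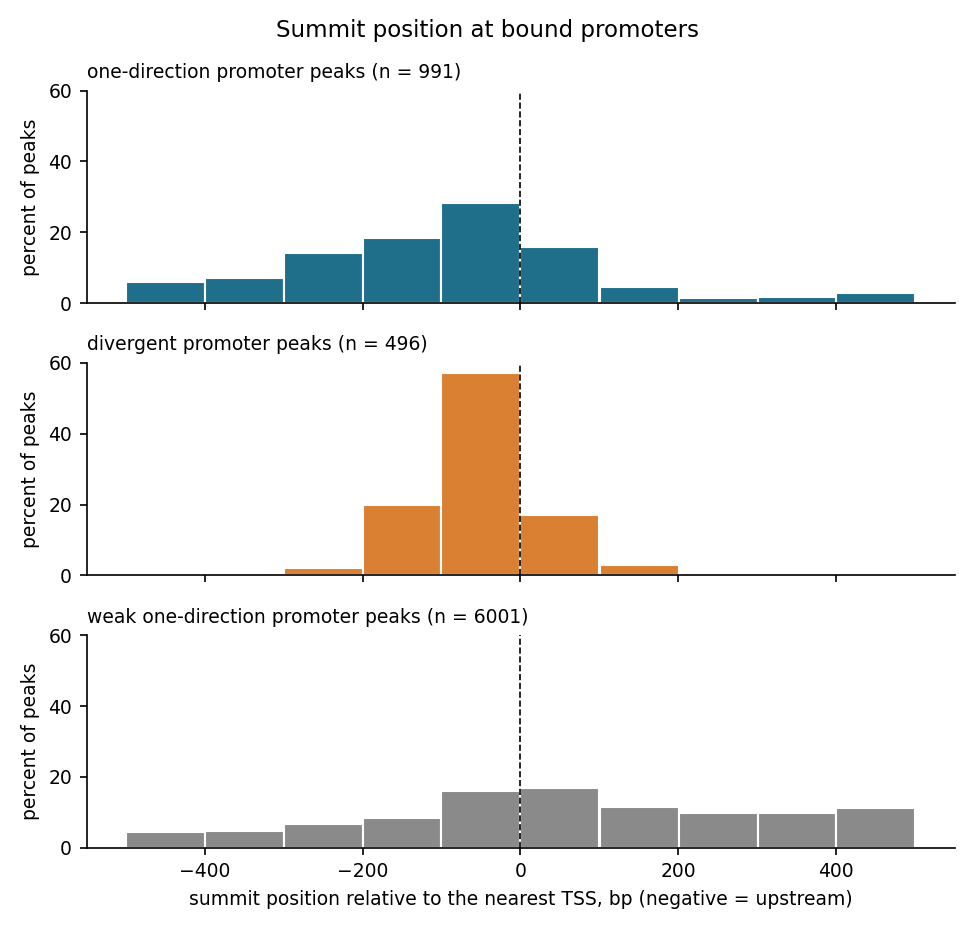
Percent of peaks (vertical axis) by summit position relative to the nearest coding TSS in bins of 100 bp (horizontal axis, negative is upstream), for one-direction, divergent and weak one-direction promoter peaks. One-direction summits reach far upstream with 28.4% in the 100 bp before the TSS, divergent summits stand close to the TSS, and weak summits spread over both sides.

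Stronger members lay farther upstream. The signal value of a peak is the authors' own, its scale is not stated, and it is used here only to rank or describe peaks within a list. When the members were put in 4 equal groups by signal, the summit was upstream in 86.7% (81.9 to 90.4%) of the highest group, 78.6% of the second, 69.4% of the third and 61.1% (54.9 to 67.0%) of the lowest. Summits more than 200 bp upstream made up 38.3%, 30.6%, 21.0% and 18.6% of the groups from highest to lowest. The median position was -155.5, -92, -48.5 and -34 bp in the same order. Each replicate's own summits gave the same order of shares, from 86.3% in the highest group to 60.8% in the lowest in replicate 1 and from 86.1% to 60% in replicate 3.

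The order of the upstream shares also held when rank and position came from different libraries. Ranked by replicate 1, the summits of replicate 3 were upstream in 84.6%, 77.2%, 69.9% and 64.5% of the groups from first to last. Ranked by replicate 3, the summits of replicate 1 were upstream in 85.4%, 73.6%, 70.7% and 60%. The intervals of the first and last groups did not overlap in either case (79.5 to 88.5% and 58.3 to 70.2% by the rank of replicate 1). Median positions by the rank of replicate 1 were -149, -87, -47 and -58 bp, so the last group lay farther upstream than the third. By the rank of replicate 3 they were -159, -88, -67.5 and -32 bp. GC content moved with signal, with means of 38.8%, 39.7%, 42.1% and 43.5% from the highest to the lowest group. So did the precision of the summit, since the replicates' summits lay within 50 bp of each other in 85.7% of the highest group and 64.6% of the lowest. The part of either in the order was not tested.

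**Figure D2:**
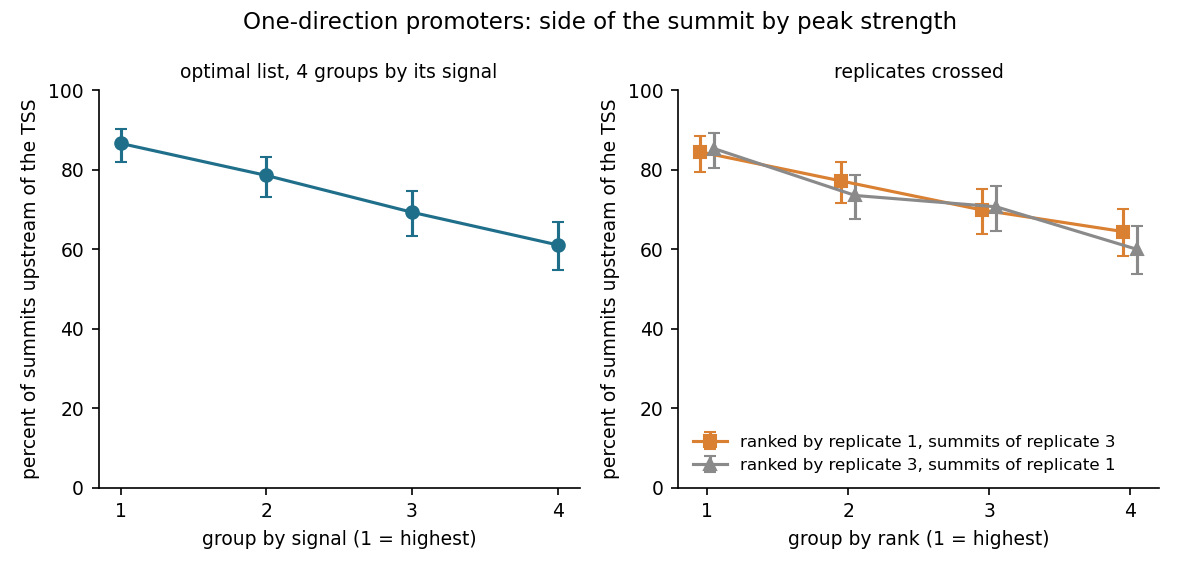
Percent of one-direction summits upstream of the TSS (vertical axes, bars are Wilson 95% intervals) by group of the members, 4 groups of equal size from highest (1) to lowest (4). The left panel ranks by signal in the optimal list and the right panel ranks by 1 replicate and takes summits from the other; the share is 86.7% in the first group and 61.1% in the last on the left, and the order from first to last is the same on the right.

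Seen from the position, the median signal was 141.6 for members more than 200 bp upstream, 140.4 for those 101 to 200 bp upstream, 118.1 for those 1 to 100 bp upstream and 103.1 for those at or downstream of the TSS. Both replicates ordered them with the same end point: members at or downstream of the TSS had the lowest median signal in replicate 1 (55.2) and in replicate 3 (54.1). The median rank of those members was 1685 in replicate 1 and 1888 in replicate 3, against 1055 and 1007.5 for members more than 200 bp upstream. Downstream members were not a uniform group, since the 27 summits 401 to 500 bp downstream had a median signal of 149.3, above the 100.3 of the 156 summits 0 to 100 bp downstream. Members more than 200 bp upstream were not uniform either. Their median signal was 160.5 at 201 to 300 bp, 122.6 at 301 to 400 bp and 134.3 at 401 to 500 bp upstream.

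The strongest members stood at genes with varied functions. The highest, at Ugalt, a Golgi transporter of UDP-galactose, had a signal of 1703, with its summit 33 bp upstream at rank 2 in replicate 1 and 1 in replicate 3. CG14100 followed with 1537, ranks 4 and 2, and a summit at -95 bp. px, a gene that limits wing vein growth, had 1451, ranks 3 and 4, and a summit at -211 bp. These summits were stable between libraries: that of px was at -216 bp in replicate 1 and -212 bp in replicate 3.

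PNPase, which encodes the mitochondrial RNA-degrading enzyme polynucleotide phosphorylase, had 1114 with its summit downstream, at 79 bp (78 bp in replicate 1, 84 bp in replicate 3). GstE13, a glutathione S-transferase gene, was the other of the 20 highest with a downstream summit (742, at 60 bp). The remaining 18 were upstream, between -33 and -483 bp. The farthest was ph-p (1099, chrX:2137178-2137535), a Polycomb group gene, with ranks 7 and 7 and summits at -483 bp in replicate 1 and -498 bp in replicate 3. The nearest TSS is internal to ph-p, so this summit lay inside the gene.

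Other members of the 20 include mRpL41 (1025), a mitochondrial ribosomal protein gene, and larp (794), an RNA-binding protein gene. Rtnl1 (647), a reticulon that shapes the endoplasmic reticulum, and gish (618), a casein kinase gene, also belong to them. Transcription factor genes among the 20 were Sox14 (742), of the SOX family, Atf3 (565), of the bZIP family, and cbt (512), a zinc finger gene of the KLF family. Sesn (539) encodes the stress-response protein sestrin, and MFS10 (593) a membrane transporter. CG1888 (984), CG13921 (795), CG31145 (715), CG18549 (582) and CG9743 (540) are known here by number only. In each of the 20, the ranks in the replicates differed by a factor of 2 or less.

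The replicates ranked the members alike at the top and less so below. The optimal list was kept after analysis of the irreproducible discovery rate of these same replicates. Their agreement on its peaks is thus in part fixed by the selection and is not separate evidence of reproducibility. Of the members, 988 overlapped a peak of replicate 1 at the summit and 986 a peak of replicate 3. Among the 100 highest peaks of each replicate, 35 were members in replicate 1 and 35 in replicate 3, and 31 were in both. Both replicates placed 159 members (16.0%) in their first 500 and 283 (28.6%) in their first 1000. These shares were 15.3% and 32.5% for divergent peaks, and 13.2% and 27.2% for peaks over 500 bp from a coding TSS. In the first 2697 of each list, as many peaks as the optimal list holds, 684 members (69.0%, 66.1 to 71.8%) were found in both, 144 in replicate 1 alone and 145 in replicate 3 alone, and 18 in neither. Ranks lay within 2-fold of each other in 708 of 983 members (72.0%). Spearman's rho of the replicates' signals was 0.644 across these 983 peaks, as a description, since peaks of 1 pair of libraries are not independent replicates.

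These ranks were close to those of the divergent promoter peaks. The members' share in the first 2697 of both replicates was 69.0%, against 71.2% (67.0 to 75%) of divergent peaks, which did not pass Fisher's exact test (two-sided, odds ratio 0.903, p = 0.403). The test counts peaks and not samples. With the limit at 250 bp in place of 500 bp it passed, with an odds ratio of 0.735 (exact p = 0.0365). Among the upper 1348 of the optimal list nearly all peaks were in both, 469 of 483 members and 263 of 264 divergent peaks, so that the odds ratio there (0.127, exact p = 0.0252) rests on 14 members and 1 divergent peak. Median signal was 121.0 for the members, 127.0 for divergent peaks and 122.3 for peaks over 500 bp from a coding TSS. Of the peaks over 500 bp from a coding TSS, 69.2% were in the first 2697 of both replicates, close to the members' 69.0%.

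The share in the upper 1348 of the optimal list was 48.7% (45.6 to 51.8%) for the members, against 53.2% (48.8 to 57.6%) for divergent peaks, and did not pass either (Fisher's exact p = 0.111, odds ratio 0.836). This result depended on the setting. Members were lower with the limit at 250 bp (odds ratio 0.565, exact p = 1.17e-05) and with gene 5' ends only (0.758, exact p = 0.0210). They were also lower in the own lists of replicate 3 (0.749, exact p = 0.0115) and replicate 1 (0.762, exact p = 0.0137). With only the summits within 100 bp of the TSS in both classes, a setting chosen after seeing the data, the odds ratio was 0.568 (exact p = 8.60e-05). The members within 100 bp of the TSS were thus less often among the upper 1348 than divergent peaks equally close.

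**Figure D3:**
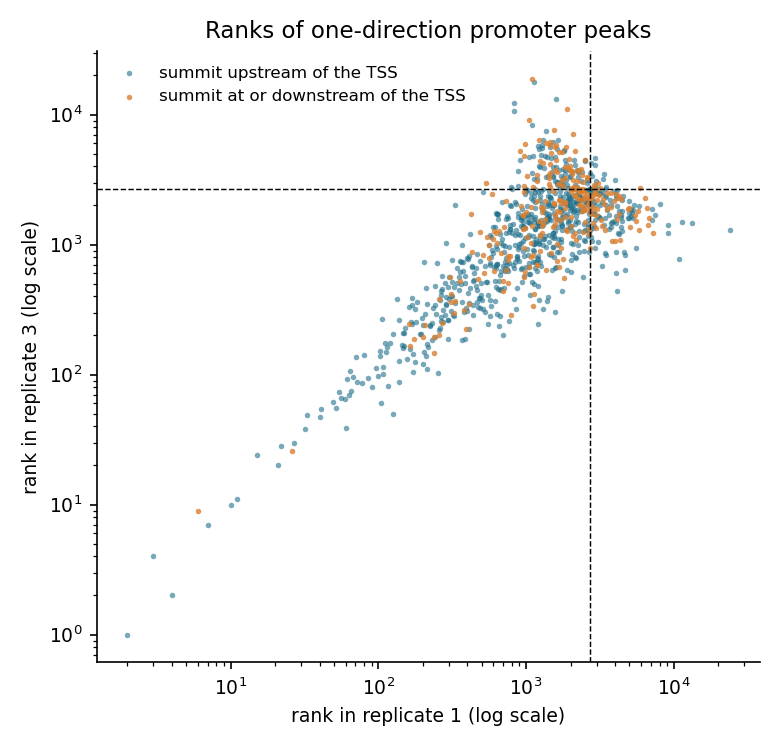
Rank of each member in replicate 1 (horizontal axis) and replicate 3 (vertical axis), both log scales, for the 983 members found in both lists, with dashed lines at rank 2697. Points lie along the diagonal at low ranks and spread above rank 1000; members with summits at or downstream of the TSS are few among the first 100.

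A few members were strong in 1 library only. MYPT-75D, a myosin phosphatase subunit gene, had rank 1091 in replicate 1 and 18935 in replicate 3. Pdp1, a bZIP transcription factor gene, had ranks 1123 and 17686. Dll, the homeobox gene of limb development, had ranks 830 and 12255, and tai, a coactivator of the ecdysone receptor, 832 and 10706. ergic53, a cargo receptor gene of the secretory pathway, had ranks 1049 and 9132.

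In the other direction, msi, which encodes the RNA-binding protein Musashi, had rank 23843 in replicate 1 and 1291 in replicate 3. The ubiquitin-conjugating enzyme gene eff had ranks 10815 and 774, and dco, a casein kinase gene of the circadian clock, 4131 and 441. aop, an Ets repressor gene, had 13280 and 1464, and ATP8A, a phospholipid flippase gene, 11407 and 1505. Ranks differed by more than 10-fold in 6 members, 4 of them better in replicate 1 and 2 better in replicate 3. Apart from dco (rank 892) and eff (rank 1549), the members named here were between ranks 2156 and 2685 of the optimal list.

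Some motif shares at the summits differed from those at divergent promoters. Of the 12 motifs, 6 differed after Benjamini-Hochberg adjustment in Fisher's exact test of windows that reach 100 bp to each side of a summit, counting a match on either strand. GAGAGAG, the site of the GAGA factor, was in 75 of the members (7.57%, 6.08 to 9.38%) and in 8 divergent peaks (1.61%, 0.819 to 3.15%), an odds ratio of 4.99 (exact adjusted p = 5.60e-06). Its share was 4.96% at the peaks over 500 bp from a coding TSS, which were not in the test. GAGAGAG was higher at the members than at divergent peaks in each of the 9 alternative settings, with odds ratios from 3.06 to 11.5, and passed in each. The initiator core TCAGT was in 36.0% of the members and 29.6% of divergent peaks (odds ratio 1.34, exact adjusted p = 0.0294). This call was lost in 5 of 9 settings, for example with the limit at 250 bp (exact adjusted p = 0.209). TCAGT was also in 37.5% of the peaks over 500 bp from a coding TSS, so its share at the members was not above that level.

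The other 4 motifs that passed were less frequent at the members than at divergent peaks. The Dref site TATCGATA was in 6.36% of the members (5.00 to 8.05%) and 12.7% of divergent peaks (10.1 to 15.9%), an odds ratio of 0.467 (exact adjusted p = 2.67e-04). With only summits within 100 bp of the TSS in both classes its odds ratio was 0.635 (exact adjusted p = 0.0594), and with the limit at 250 bp 0.649 (exact adjusted p = 0.0779). The E-box CAGCTG was in 11.2% of the members and 19.2% of divergent peaks (0.532, exact adjusted p = 2.67e-04). TATAAA, the letters of the TATA box, was in 22.8% and 31.5% in the same order (0.644, exact adjusted p = 9.95e-04). It was counted on either strand and at any place in the window, so a match need not be a TATA box. The homeodomain site TAATTA was in 10.5% and 17.5% (0.551, exact adjusted p = 6.06e-04). Peaks over 500 bp from a coding TSS were not in these tests. Their shares were 0.579% for the Dref site, 6.61% for CAGCTG, 26.6% for TATAAA and 11.2% for TAATTA. The members were thus above these peaks for the Dref site and CAGCTG, and below them for TATAAA and TAATTA. In windows of 50 bp either side, the calls of CAGCTG (exact adjusted p = 0.562), TATAAA (0.0738) and TAATTA (0.0738) were lost, and that of TATAAA also among the upper 1348 (0.0967). Mean GC content was 41% at the members and 38.4% at divergent peaks, and its part in these differences was not tested.

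CAATTA, the reported Repo site, was in 17.2% of the members (14.9 to 19.6%) and 17.7% of divergent peaks (odds ratio 0.960, exact adjusted p = 0.926). Its share was 18.0% in the stronger members, those among the upper 1348 of the optimal list, and 16.3% in the others. The M1BP site GGTCACAC was in 4.54% of the members and 7.06% of divergent peaks (0.627, exact adjusted p = 0.0760), and in windows of 200 bp it passed (0.592, exact adjusted p = 0.0106). The AP-1 site TGAGTCA, the Zelda site CAGGTA, the GATA site AGATAAG and the E-box CACGTG did not pass either, with exact adjusted p from 0.0592 to 1, though TGAGTCA passed with the limit at 1000 bp (0.433, exact adjusted p = 0.0393).

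**Figure D4:**
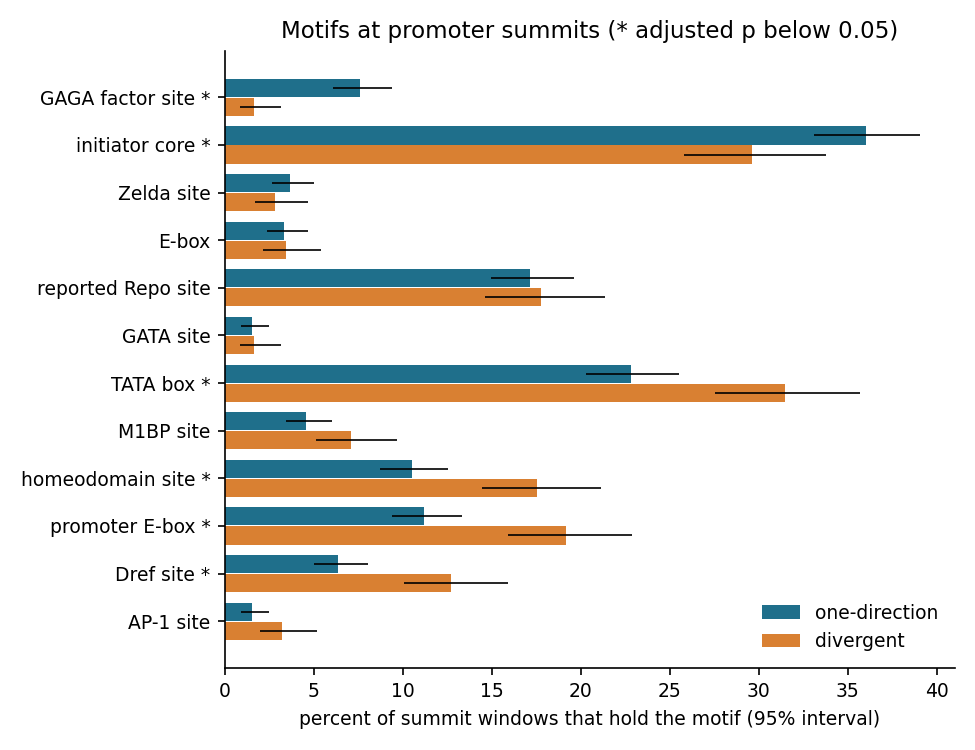
Percent of summit windows of 201 bp that hold each of the 12 motifs (horizontal axis, bars with Wilson 95% intervals) at one-direction and divergent promoter peaks, ordered by odds ratio from top to bottom. Stars mark an adjusted p below 0.05: the GAGA factor site (7.57% against 1.61%) and the initiator core are higher at one-direction summits, and TATAAA (labelled TATA box), the homeodomain site, the promoter E-box and the Dref site are lower.

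The following windows of 41 bases show 4 of the motifs compared above, each in the 2 members of highest signal that hold it, outside annotated exons, on the strand of the gene. Capitals mark the motif; both orientations of each were counted. The GAGA windows lie at chr3R:30203467-30203507 (CG9743, minus strand) and chr3L:20247808-20247848 (rdgC, a phosphatase gene, plus), the Dref windows at chr3R:29220115-29220155 (eEF1gamma, a translation elongation factor gene, plus) and chrX:13739448-13739488 (CG11151, plus), the CAGCTG windows at chrX:4667007-4667047 (CG3009, minus) and chr3R:5791799-5791839 (Hpf1, a cofactor of ADP-ribosylation, plus), and the M1BP windows at chr3R:25685144-25685184 (RpL27, a ribosomal protein gene, minus) and chr3R:17385812-17385852 (lute, plus).
CG9743: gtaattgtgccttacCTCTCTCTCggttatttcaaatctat
rdgC: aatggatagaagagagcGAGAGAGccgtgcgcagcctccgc
eEF1gamma: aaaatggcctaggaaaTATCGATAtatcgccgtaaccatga
CG11151: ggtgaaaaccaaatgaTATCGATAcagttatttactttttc
CG3009: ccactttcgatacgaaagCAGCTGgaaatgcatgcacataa
Hpf1: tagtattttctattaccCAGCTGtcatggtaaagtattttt
RpL27: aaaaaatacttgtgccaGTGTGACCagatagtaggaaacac
lute: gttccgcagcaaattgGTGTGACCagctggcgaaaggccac
The capitals at CG9743 cover 2 overlapping matches on the reverse strand. The CAGCTG of CG3009 lay 2 bp from the summit, and the Dref site of eEF1gamma 29 bp from its summit and 37 bp before the TSS.

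Motifs were distributed by the position of the summit. The Dref site was in 13.2% of members with the summit 1 to 100 bp upstream, 6.56% of those 101 to 200 bp upstream and 1.12% of those farther upstream, and in 4.26% of those at or downstream of the TSS. The M1BP site had 9.25%, 2.19% and 1.12% over the 3 upstream classes in that order. TATAAA ran the other way, with 16.0%, 32.2% and 29.4%, and GAGAGAG with 6.41%, 8.74% and 10.04%. Mean GC content was 42.9%, 38.5% and 36.9%. Members with a Dref site had a median signal of 107.8, against 122.0 for those without, and members with an M1BP site 108.1, against 122.0. These are descriptions within 1 list, without a test.

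Compared with one-direction promoters that were not bound, the promoters at members more often held GAGA, Dref, M1BP and CAGCTG sites. From 250 bp before to 50 bp after the TSS, GAGAGAG was in 16.2% of 962 bound one-direction promoters and 6.5% of 9252 not bound. The Dref site was in 9.46% of bound and 5.92% of not bound promoters, and the M1BP site in 8.63% and 4.67%. TATAAA was lower at bound promoters, 36.8% against 45.5%, and so were CAATTA, 20.5% against 25.4%, TAATTA, 15.3% against 19.5%, and AGATAAG, 3.01% against 5.29%. CAGCTG was in 19.3% of bound and 14.7% of not bound promoters. TCAGT was nearly equal, in 53.8% of bound and 54.1% of not bound promoters. A separate set of 9980 promoters of this length, bound or not, is not the total of the bound and not bound sets above. Its shares were 6.91% for GAGAGAG, 6.37% for the Dref site, 5.08% for the M1BP site, 45.2% for TATAAA and 25.2% for CAATTA. Mean GC content was 41.8% at bound and 39.7% at not bound promoters, and no test was made. GAGAGAG matches stood a median of 95 bp before the TSS at bound promoters, with the middle 50% from -125.75 to -64.25 bp. TATAAA matches stood at a median of -154 bp there, with the middle 50% from -201 to -90 bp and 54.4% on the strand of the gene. At promoters not bound their median was -114 bp, with 58.8% on that strand.

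The rule leaves out promoters with a close opposite TSS, which in part fixes the direction of the gene upstream of a member. In 495 members (49.9%) the next gene upstream was in tandem, in 397 (40.1%) it was head to head with its TSS over 500 bp from the summit, and in 99 (9.99%) it overlapped. Of the 397, 21 had that TSS within 500 bp of the member's own TSS, all with the summit downstream of the member's TSS. The nearest coding TSS on the opposite strand was a median of 4151 bp away (middle 50% 1636 to 10048.5 bp), and 154 members (15.5%) had one within 1000 bp. Median signal was 120.2 in tandem, 122.7 in head-to-head and 125.9 in overlapping cases. An opposite TSS of a gene that is not protein-coding lay within 500 bp in 54 members (5.45%), so these could be divergent under a wider annotation.

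The members fell on 907 nearest genes, and 933 of 13945 protein-coding genes (6.69%) had a TSS within 500 bp of a member's summit. These are called bound genes. They made up 6.40% to 7.08% of the coding genes of 2L, 2R, 3L, 3R and X, and 3.75% of the 80 on chromosome 4. Up to 5 members shared 1 gene, and 74 genes had more than 1. The nearest genes were long, with a median of 5883 bp against 2166 bp over all coding genes, and 41.6% of them had a single TSS, against 73.5%. A gene with more TSSs has more places to be counted: 3.81% of genes with 1 TSS were bound, 10.8% of those with 2, 21.7% of those with 3 or 4 and 32.6% of those with 5 or more. The part of TSS number and length in the gene list counts below was not tested. Of the bound genes, 26.8% are named by a CG number, against 43.7% of all coding genes.

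Cytoplasmic ribosomal protein genes had the highest bound share of 25 gene lists at the 500 bp limit, with an interval that overlaps those of several others. Of 86 genes, 28 (32.6%, 23.6 to 43.0%) were bound, beside the 6.69% over all coding genes. Divergent peaks stood at 26 of the 86. Among genes with at least 1 TSS that has no opposite coding TSS within 1000 bp, 20 of 38 (52.6%) were bound, beside 8.80% of all such genes (838 of 9521). These summits stood near the start, with a median of -9 bp, 19 of them were upstream, and 22 of the 28 were in the first 2697 of both replicates. The genes of highest signal were RpL23A (420, at -84 bp, ranks 116 in replicate 1 and 82 in replicate 3) and RpS10b (290, at -24 bp, ranks 297 and 188). RpL30 had 264 with ranks 298 and 261, and RpL24 254 with ranks 312 and 309. The list had a median of 2 TSSs a gene and a median length of 1344.5 bp. The share was 46.5% with the limit at 250 bp and 20.9% at 1000 bp. At 1000 bp it was below the glial genes (34.1%), the receptor and ligand genes (30.4%) and the Polycomb, trithorax and remodelling genes (24%). The limit also sets which peaks count as divergent, and its part in these shares was not tested. Among the upper 1348 of the optimal list the share of ribosomal protein genes was 22.1%, beside 3.38% of all coding genes there.

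Translation factors were bound at 10 of 54 genes (18.5%, 10.4 to 30.8%), beside 6.69% over all coding genes, 8 of them in the first 2697 of both replicates. eIF6, which keeps the ribosomal subunits apart, had 454 (ranks 78 and 86) and eEF1gamma 357 (ranks 139 and 128). The initiation factor gene eIF3c had 187 with ranks 938 and 518. pAbp, the poly(A)-binding protein gene, had 231 with a summit 493 bp downstream of a TSS internal to the gene. Other housekeeping lists were lower, and some had more divergent than one-direction peaks. The mitochondrial ribosomal protein genes had 2 bound of 73 (2.74%), mRpL41 and mRpL4 (97.6), and divergent peaks at 16; the bound share was 1.37% without replicate 1 and 5.48% without replicate 3. The aminoacyl-tRNA synthetase genes had 0 of 33 (upper bound 10.4%) and divergent peaks at 7, with a bound share of 9.09% at 250 bp beside 6.48% of all coding genes there, and the nuclear pore and transport genes 0 of 28 (upper bound 12.1%) and divergent peaks at 6. These lists have few genes that stand apart, 15 of the 73, 11 of the 33 and 6 of the 28 having a TSS with no opposite coding TSS within 1000 bp. The spliceosome list had 0 of 27 bound, and 3.70% at 250 bp or with gene 5' ends only, and the proteasome 1 of 48 (Rpn10, 101). Of the respiratory chain and ATP synthase genes 4 of 82 (4.88%) were bound, led by blw, the ATP synthase alpha subunit gene (177), and ATPsynC (105).

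**Figure D5:**
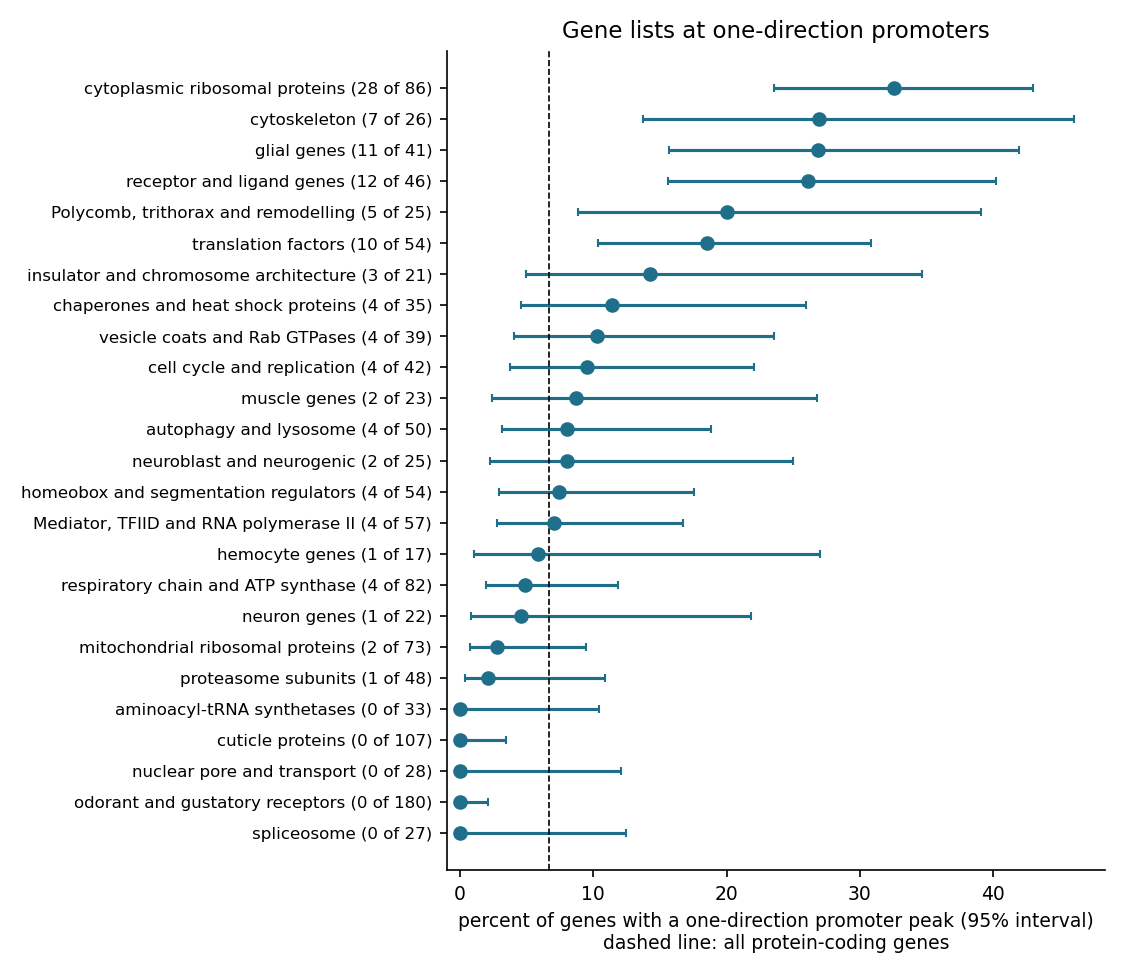
Percent of the genes of each of 25 lists that had a one-direction promoter peak (points, bars are Wilson 95% intervals, counts in the labels), with a dashed line at 6.69% for all protein-coding genes. Cytoplasmic ribosomal proteins are highest at 32.6%, and 5 lists have 0 bound genes.

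Glial genes were bound at 11 of 41 (26.8%, 15.7 to 41.9%), beside the 6.69% over all coding genes, and 11 of the 34 that stand apart (32.4%, beside 8.80%). The list had a median of 2 TSSs and a median length of 7769 bp. In 10 of the 11 the summit was upstream of the nearest TSS, with a median of -187 bp, and 7 were in the first 2697 of both replicates. At Atpalpha, ced-6, pnt, nrv2 and aop the nearest TSS is internal, so the peak lay inside the gene. moody, a G-protein coupled receptor gene of the barrier around the brain, reached a signal of 395 and ranks 108 and 101. The other 10 were weaker, from 84.5 to 140.4, and none of them was in the upper 1000 of the optimal list. With gene 5' ends only, 14.6% of the list was bound, beside 5.54% of all coding genes, with the limit at 250 bp 17.1%, beside 6.48%, and among the upper 1348 of the optimal list 7.32%, beside 3.38%.

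apt, a transcription factor gene, had 140 (ranks 1524 and 964) and ced-6, an engulfment adaptor gene and the exception with a downstream summit (455 bp), had 136 (ranks 1246 and 1166). The septate junction gene Lac had 116 (ranks 1857 and 1648). The sodium pump subunit genes Atpalpha and nrv2 had 112 (ranks 2639 and 1433) and 88.3 (ranks 2774 and 2672). The adhesion genes Nrg and wrapper had 104 (ranks 1235 and 3936) and 94.4 (ranks 2643 and 1539). repo itself was a member, with 94.1, its summit 222 bp upstream, and ranks 2149 in replicate 1 and 2667 in replicate 3. The Ets factor genes pnt and aop had 90.6 (ranks 2748 and 4213) and 84.5 (ranks 13280 and 1464), so both replicates placed pnt outside their first 2697.

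Lists of neuron, muscle, hemocyte, neuroblast and homeobox genes had bound shares from 4.55% to 8.70%, beside 6.69% over all coding genes. The neuron genes had 1 of 22 bound (4.55%, 0.807 to 21.8%), elav, with a signal of 260 at -290 bp and ranks 283 and 289. The neuron list had a median of 2 TSSs and a median length of 29703.5 bp. The muscle genes had 2 of 23 (8.70%), sls (190), which encodes the giant filament protein of muscle, and Mef2 (97.3). The hemocyte genes had 1 of 17 (5.88%), NimC4 (138), and the neuroblast and neurogenic genes 2 of 25 (8%), numb (185) and Dr (94.4). The homeobox and segmentation regulators had 4 of 54 (7.41%), bcd (139), oc (94.3), Dll (94.1) and eyg (91.5), and without replicate 1 their share was 1.85%. Without replicate 1 the share of the muscle genes was 13.0% and that of the neuroblast and neurogenic genes 4%, and without replicate 3 that of the hemocyte genes was 11.8%. With the limit at 1000 bp the share of the hemocyte genes was 17.6%. No odorant or gustatory receptor gene of 180 was bound (upper bound 2.09%) and no cuticle protein gene of 107 (upper bound 3.47%), both upper bounds being below 6.69%, and 1 gene of each list had a divergent peak.

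Receptor and ligand genes were bound at 12 of 46 (26.1%, 15.6 to 40.3%), beside 6.69% over all coding genes, at a low median signal of 101.7 and with the summit upstream in 4 of the 12. spi, an Egfr ligand gene, had 329 at -181 bp (ranks 211 and 139), InR, the insulin receptor gene, 140 at -27 bp, ptc, the Hedgehog receptor gene, 119 at 7 bp, and the guidance gene Sema1a 118 at -53 bp. The genes of this list were long, with a median of 18589.5 bp. At spi the nearest TSS is internal, so the peak lay inside the gene. The cytoskeleton genes had 7 of 26 bound (26.9%, 13.7 to 46.1%), led by alphaTub84B (165), Act5C (137), Moe (113), which links actin to the membrane, and sqh (94.0), the myosin regulatory light chain gene. Among the upper 1348 of the optimal list, 4.35% of the receptor and ligand genes, 7.69% of the cytoskeleton genes and 8% of the Polycomb, trithorax and remodelling genes were bound, beside 3.38% of all coding genes. Of the Polycomb, trithorax and remodelling genes 5 of 25 (20%, 8.86 to 39.1%) were bound. They were led by ph-p (1099), Trl, which encodes the GAGA factor (246, at 99 bp, ranks 311 and 362), the remodeller gene kis (115.3) and Psc (95.7). At ph-p, Trl, kis and Psc the nearest TSS is internal, so the peak lay inside the gene. With the 2697 highest peaks of replicate 3 alone, that is without replicate 1, the bound share of the cytoskeleton genes was 15.4% and that of the Polycomb, trithorax and remodelling genes 12%.

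The insulator and chromosome architecture genes had 3 of 21 (14.3%), BEAF-32 (130), pita (100.3) and CTCF (95.4). The chaperones and heat shock proteins had 4 of 35 (11.4%). Hsp83 (319, ranks 125 and 204), Hsp27 (251, ranks 321 and 288) and Hsp26 (159, ranks 573 and 1191) had their summits 84 to 122 bp upstream of the nearest TSS. At Hsp83 that TSS is internal, so the peak lay inside the gene. Hsp110 (87.8) had ranks 1878 and 11053. The vesicle coats and Rab GTPases had 4 of 39 (10.3%), led by deltaCOP (224) and Rab5 (136), with 15.4% without replicate 3, and the cell cycle and replication genes 4 of 42 (9.52%), led by BubR1 (125) and polo (118). The autophagy and lysosome genes had 4 of 50 (8%), led by Atg8a (125) and Vps28 (120.4), and the Mediator, TFIID and RNA polymerase II genes 4 of 57 (7.02%), led by Polr2F (242) and MED4 (213). With lists of this size the intervals of these 6 include the background.

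The 500 bp limit cut through strong peaks. The members nearest to it were at mrj, a chaperone gene (-497 bp, signal 120), and btz, an exon junction complex gene (497 bp, signal 88.2). Just outside stood a peak 501 bp from the TSS of Fbl6 with a signal of 286 and one 503 bp from that of wde, which encodes a cofactor of histone methylation, with 429.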

How the data were processed

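Peak lists of Repo-GFP ChIP-seq on dm6 were used: 1 list per replicate, a pooled list and an optimal list kept after analysis of the irreproducible discovery rate, per the labels. Each peak has a signal value deposited by the authors and an offset that the authors give from its start to its summit, in bp; the sources used here do not name the caller, the threshold or the scale of the signal. Depth is unknown. TSSs were the 5' ends of transcripts of protein-coding genes in the Ensembl BDGP6 annotation, release 115 (19607 TSSs), and sequence came from the RefSeq dm6 genome. A peak matched a replicate when its summit lay inside that replicate's peak, and ranks are by signal. With 2 replicates of 1 group no test over samples was possible, so Fisher's exact test (two-sided, threshold 0.05) was made across peaks, with Benjamini-Hochberg adjustment over the 12 motifs; peaks are not replicates. The members, motifs and 25 gene lists were chosen with earlier results of these data known. Named were repo, the 20 members of highest signal, up to 4 bound genes of highest signal per list and every bound glial gene, up to 5 members with the largest rank ratio in each direction, and the 2 peaks nearest each side of the limit. 7 list entries matched no symbol and were not used. Functions were checked on simulated peaks. Python 3.11.15, numpy 2.4.6, pandas 2.3.3, scipy 1.17.1 and matplotlib 3.10.9 were used.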

Additional observations from a re-analysis of the deposited data

How the results depend on the processing

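Of the upper 1348 of the optimal list, 483 peaks were members, 82.6% of their summits were upstream and 3.38% of coding genes were bound. With gene 5' ends only these shares were 68.1% and 5.54%. In a separate setting, with all transcript TSSs, only genes with at least 1 TSS that has no opposite coding TSS within 1000 bp were counted. Of these genes 8.80% were bound. Without replicate 1 and without replicate 3 the number of members was 945 to 1062, the upstream share 68.4 to 75.4%, the share of bound genes 6.40 to 7.09%, the number of motifs that passed 5 to 6, and the odds ratio of the share among the upper 1348 0.749 to 0.762. That odds ratio was 0.758 with gene 5' ends, 0.565 at 250 bp and 0.568 for summits within 100 bp of the TSS. The odds ratio for the first 2697 of both replicates was 0.735 at 250 bp and 0.127 among the upper 1348. In windows of 50 bp, 2 motifs passed.

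Some motifs that did not pass changed direction in other settings. CAATTA had odds ratios of 1.01 with gene 5' ends, 1.16 among the upper 1348 and 0.929 to 1.08 without replicate 3 or 1. CACGTG had 1.08, 1.10, 1.15 and 1.03 with gene 5' ends, among the upper 1348, in windows of 50 bp and within 100 bp of the TSS. CAGGTA had 0.951 at 250 bp, 0.737 among the upper 1348 and 0.992 to 1.15 without replicate 3 or 1. AGATAAG had 1.20 at 1000 bp, 1.02 among the upper 1348, 1.00 in windows of 50 bp and 1.05 in windows of 200 bp, and GGTCACAC 1.01 within 100 bp of the TSS. The causes were not tested. No paired analysis was possible because there is a single group. Signal is given without read counts, so depth sets a limit here that cannot be measured.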
